A study of Mus musculus with 4 samples.

Results

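The microRNA (miRNA) miR-142 was followed through 4 small RNA libraries of sorted mouse macrophages, using the rows of the count table that are named for its hairpin. These were 3 of the 847 rows, namely mmu-miR-142a-3p, mmu-miR-142a-5p and mmu-miR-142b (mmu for mouse, left out below). They were taken by name, with earlier results of these data known. The macrophages came from bone marrow (BM) or spleen. The C57BL/6J donors were either normal (day 0) or 18 days after transplantation of GFP-marked leukaemia cells carrying the MLL-AF9 fusion, which cause acute myeloid leukaemia (AML). The mice were 6 to 8 weeks old, and the leukaemic ones had not been irradiated and were stated to survive for 35 to 40 days. Normal BM, AML BM, normal spleen and AML spleen formed 4 groups with 1 library each, so every comparison sets library against library and has no replicate check. The markers of the sort and the number of mice behind a library were not given in the sources used here.

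A miRNA is cut from a hairpin precursor whose stem yields a duplex of a 5′ arm (5p) and a 3′ arm (3p). Either arm can be loaded into an Argonaute protein, where bases 2 to 8, the seed, pair with target mRNAs. miR-142 is known as a miRNA of haematopoietic cells, present in leukocytes of many lineages and scarce in other tissues, and binding sites for its 3p arm are used in gene transfer to silence a transgene in blood cells. In mice its loss disturbs several blood lineages, lymphocytes and myeloid cells among them.

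The mature sequences are shown because the 3 rows turn out to hold only 2 sets of reads. All are from RefSeq on build GRCm38.p6, matched by name, and are written 5′ to 3′ with the seed in capitals.
miR-142a-5p: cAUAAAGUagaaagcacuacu
miR-142a-3p: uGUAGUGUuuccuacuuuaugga
miR-142b: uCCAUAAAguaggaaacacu
The arm miR-142a-5p lies at chr11:87756867-87756887 and miR-142a-3p at chr11:87756903-87756925, both on the plus strand, whereas miR-142b lies at chr11:87756906-87756925 on the minus strand. None of these seeds was shared with any other of the 1679 mature miRNA names in the RefSeq table. Among the 673 of 847 count rows that matched a RefSeq name, no other row thus belongs to the same seed family. The remaining rows had no sequence to compare.

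The whole Mir142 hairpin, 64 bases at chr11:87756864-87756927, is printed below with both mature arms in capitals.
Mir142 hairpin: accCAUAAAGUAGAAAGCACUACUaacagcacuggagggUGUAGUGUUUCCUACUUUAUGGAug
It lies in the intron of Mir142hg, a 2-exon long non-coding RNA gene on the same strand in the GENCODE annotation of GRCm38. Among protein-coding genes, Supt4a and Tspoap1 flank it in the RefSeq gene table. The longest run of 3p bases that pairs without a break with 5p, as Watson-Crick pairs, is 10 bases.

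The antisense row miR-142b was not a separate measurement. Its mature sequence is the exact reverse complement of bases 4 to 23 of miR-142a-3p, counted from the 5′ end, which are capitalised on the first line here above the reverse complement of miR-142b.
miR-142a-3p: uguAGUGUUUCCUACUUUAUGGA
reverse complement of miR-142b: aguguuuccuacuuuaugga
Both rows held 31 counts in normal BM, 170 in AML BM, 253 in AML spleen and 1704 in normal spleen. The counts were thus identical in each of the 4 libraries, and a read cannot be assigned to the plus or the minus strand from this table. All values of miR-142b below equal those of miR-142a-3p, and only the latter are given.

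Other antisense pairs of the table were examined in the same way. Of 673 rows with a RefSeq sequence, 14 pairs shared an antisense run of at least 16 bases, and 8 of these pairs had at least 100 counts in a row. In 3 of the 8 the counts were identical in all libraries, and in 4 they matched within 3% or 2 counts. Identical pairs among the 8 were miR-142a-3p with miR-142b, miR-24-2-5p with miR-3074-2-3p, and miR-374b-5p with miR-374c-3p. The counts of miR-126a-3p and miR-126b-5p differed despite a run of 19 bases. The rows miR-126a-5p and miR-126b-3p were not among the 14 pairs, but their ratios were equal in every comparison of libraries. The counting rule behind these rows is not given in the sources used here.

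**Figure D1:**
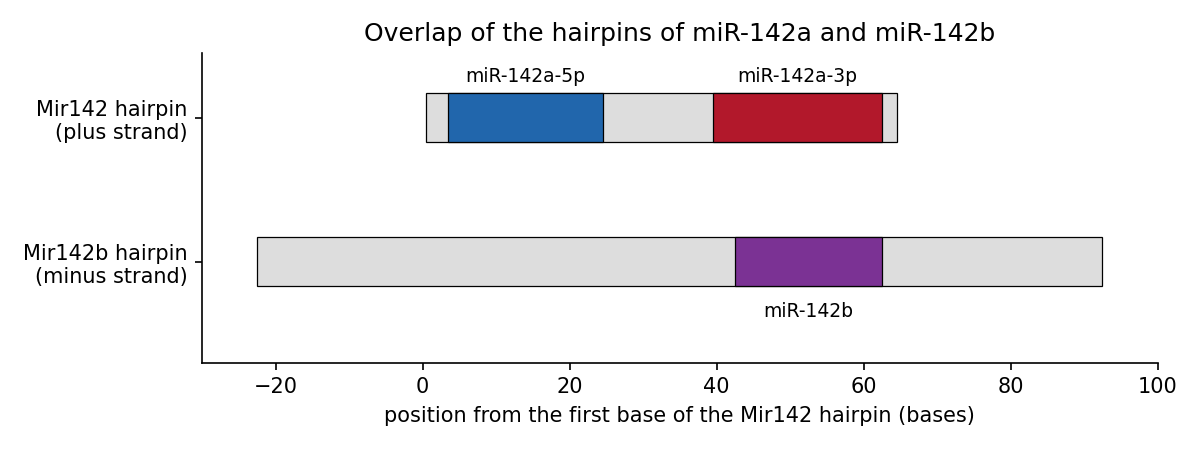
Map of the hairpins, with the position in bases from the first base of the Mir142 hairpin on the x axis and the strand of each hairpin on the y axis. Grey bars are hairpins and coloured bars are mature miRNAs, and the miR-142b bar lies within the span of miR-142a-3p on the other strand.

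The libraries held between 180227 (AML spleen) and 435492 (normal spleen) counts, and 505 to 680 rows were detected in each. Levels below are counts per 1000000 of the library after scaling (scaled CPM), with 95% exact Poisson intervals in brackets, and 3 counts corresponded to between 7.65 and 15.5 scaled CPM. Intervals cover counting error only and not the spread between mice or library preparations. The myeloid marker miR-223, an abundant miRNA of granulocytes and monocytes, gave 14 counts over both arms in AML spleen, 52 in normal BM, 64 in normal spleen and 161 in AML BM. The 3p arm of miR-223 alone had 4, 10, 28 and 12 counts in the same order, and the 5p arm gave 149 of the 161 in AML BM. Together the arms took at most 0.0594% of the reads of a library, and no other marker of the macrophage label was measured.

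The arm miR-142a-3p was highest in normal spleen and lowest in normal BM, a 29.1-fold range. Normal BM stood at 149 scaled CPM [102 to 212] from 31 counts. AML BM stood at 606 [519 to 705] and AML spleen at 1311 [1155 to 1483]. Normal spleen reached 4346 [4142 to 4557]. Both leukaemic libraries lay between the normal ones, and no 2 of the 4 counting intervals overlapped. Within its library this arm ranked 177th of 505 detected rows in normal BM, 98th of 547 in AML BM, 72nd of 535 in AML spleen and 37th of 680 in normal spleen.

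The arm miR-142a-5p had the same order of libraries over an 8.26-fold range. It had 67 counts in normal BM, or 323 scaled CPM [250 to 410]. The 173 counts of AML BM gave 617 [528 to 716], and the 213 of AML spleen gave 1104 [961 to 1263]. Normal spleen, with 1047 counts, stood at 2670 [2511 to 2837]. These 4 intervals did not overlap either. Among the 144 miRNAs that reached 30 counts in each library, 18 (12.5%) had this order, the 3 miR-142 rows included.

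**Figure D2:**
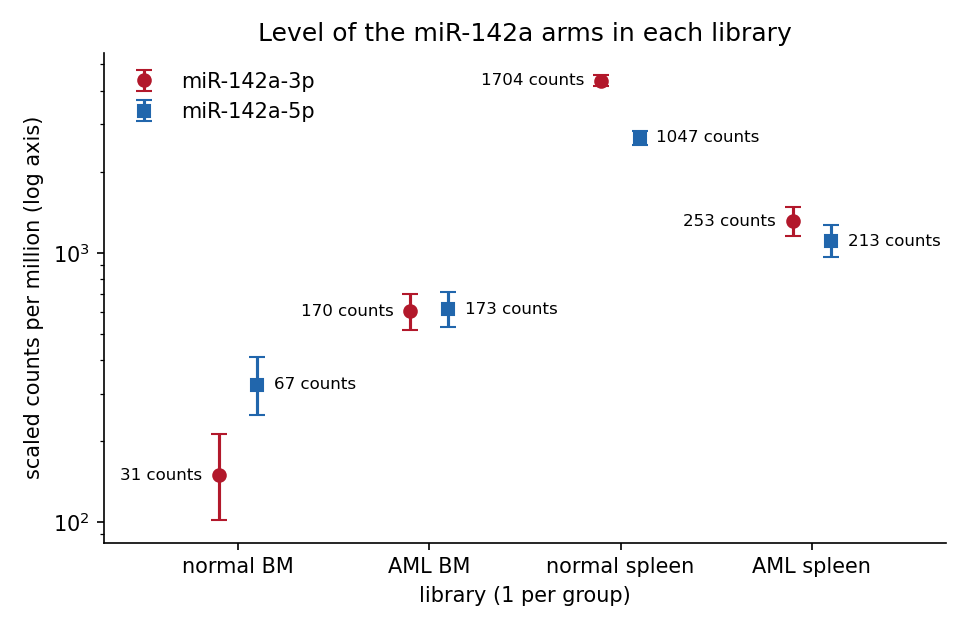
Scaled CPM on a log axis (y) in each of the 4 libraries (x) for miR-142a-3p (circles) and miR-142a-5p (squares), with raw counts beside the points and bars for the 95% exact Poisson interval. Normal spleen is highest and normal BM lowest for both arms, and the arms stand closest in AML BM, at 606 and 617.

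The AML BM library had more miR-142 than the normal BM library. The 3p arm was 4.06-fold higher in AML BM (170 against 31 counts), a log2 ratio of 2.02 with a 95% exact conditional interval of 1.46 to 2.62. The 5p arm (173 against 67 counts) was 1.91-fold higher, a log2 ratio of 0.93 [0.52 to 1.36]. A miRNA was called different when it changed at least 2-fold, its interval excluded a ratio of 1 and its larger count was at least 30. By that rule 3p was called higher and 5p was not called, and 13.4% of the 216 miRNAs compared were called higher. Ranked from the highest ratio, 3p stood 6th and 5p 32nd of the 216. With libraries scaled on their totals after the 10 most abundant miRNAs were left out, 5p was called too, at 1.13.

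In the spleen the difference ran the other way. The 3p arm was 3.31-fold lower in AML spleen than in normal spleen (253 against 1704 counts), a log2 ratio of -1.73 [-1.92 to -1.54]. The 5p arm was 2.42-fold lower (213 against 1047 counts), at -1.27 [-1.49 to -1.06]. Both were called lower, as were 21.3% of the 216 miRNAs compared, whose median log2 ratio was -0.25. From the lowest ratio, 3p ranked 15th and 5p 38th.

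The AML ratio of the spleen was thus below that of the BM for both arms. The difference of the log2 ratios was -3.75 for 3p, with a 95% interval of -4.33 to -3.16 from the counting error of the 4 counts. It was -2.21 [-2.67 to -1.75] for 5p. The value of miR-142a-3p, repeated in miR-142b, was the lowest of the same 144 miRNAs, and 5p ranked 10th from the lowest. Their median was -0.12, with 15 miRNAs at -2 or below and 33 at 2 or above. The 31 counts of 3p in normal BM lie at the edge of the count minimum, and miR-155-5p, with 14 counts there, was not eligible. The rank of 3p holds only among the 144. Outside them miR-155-5p had AML log2 ratios of 2.40 in the BM and -2.09 in the spleen. For miR-185-3p they were 3.77 [1.82 to 6.87] and -2.80 [-4.04 to -1.77]. For miR-92a-1-5p they were 1.56 [0.80 to 2.40] and -2.98 [-5.30 to -1.34], and for miR-455-3p 3.43 [2.14 to 5.10] and -0.66 [-0.96 to -0.37]. These lie further apart than the 2.02 and -1.73 of 3p.

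Between the tissues, miR-142 was higher in the spleen library in each state. In normal mice 3p was 29.1-fold higher in the spleen library, a log2 ratio of 4.86 [4.35 to 5.42], and 5p was 8.26-fold higher, at 3.05 [2.69 to 3.43]. Both were called, against 30.8% of 234 miRNAs called higher, and they ranked 5th and 17th from the highest. In leukaemic mice the gap was smaller, at 1.11 [0.83 to 1.40] for 3p, which was called, and 0.84 [0.54 to 1.14] for 5p, which was not. In that comparison 13.7% of 211 miRNAs were called higher. The tissue comparisons share no library with each other, but each shares both of its libraries with the AML comparisons, so the 4 ratios are not independent.

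**Figure D3:**
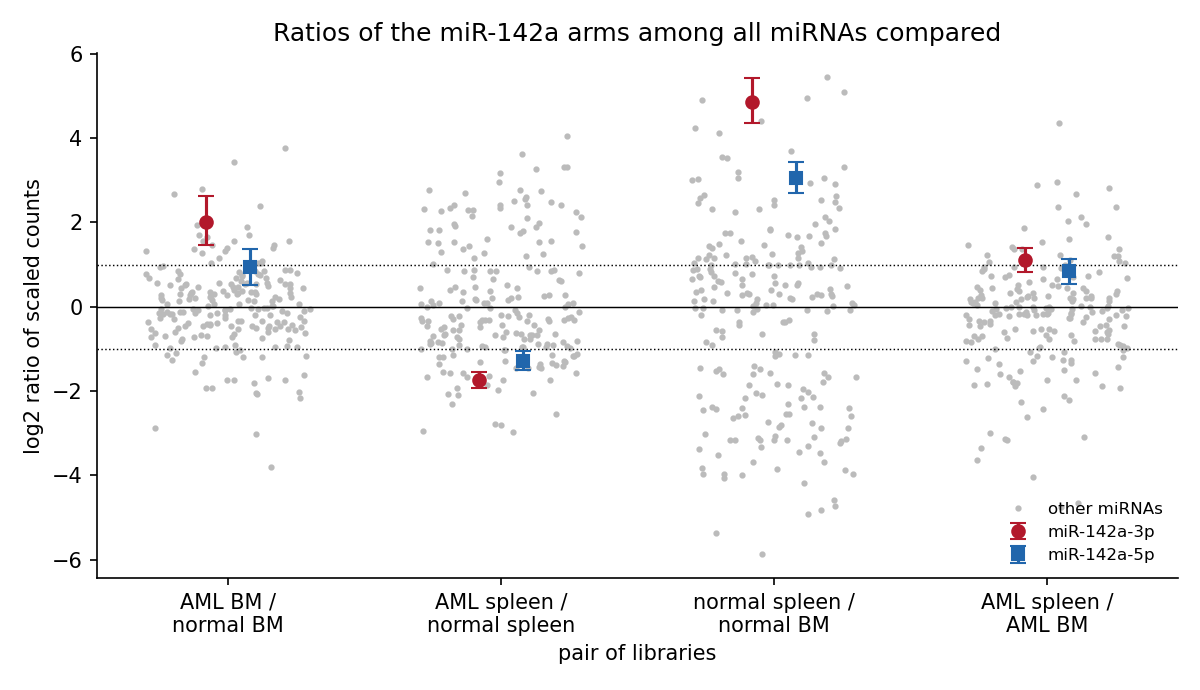
Log2 ratio of scaled counts (y) for 4 pairs of libraries (x), with miR-142a-3p as circles and miR-142a-5p as squares with 95% exact conditional intervals, and every other miRNA compared as a grey dot (a count of 0 enters as 3). Dotted lines mark 2-fold. In AML BM against normal BM 3p lies at 2.02, and in AML spleen against normal spleen it lies at -1.73.

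A model with tissue and leukaemia as additive terms, fitted to 246 miRNAs, uses the 4 libraries together and leaves 1 residual degree of freedom. For 3p the spleen-minus-BM effect was 2.96 on the log2 scale, higher in the spleen in 2 of 2 pairs of libraries, with an adjusted p of 0.758 by edgeR's quasi-likelihood test. For 5p it was 1.94, also higher in 2 of 2 pairs, with the same adjusted p of 0.758 by edgeR. By that test 0 (0%) of the 246 miRNAs passed an adjusted p of 0.05, with 15 at an unadjusted p under 0.05. With DESeq2 3p passed at an adjusted p of 0.0439 and 5p did not, at 0.280, and 3.25% of the miRNAs were called higher and 1.63% lower. With limma 0 of 246 passed, with 22 at an unadjusted p under 0.05. The AML-minus-normal effect was 0.11 for 3p and -0.18 for 5p, with adjusted p of 0.998 for both by edgeR. The opposite differences in the tissues enter this last effect as noise and as a mean near 0. They count as noise for the spleen-minus-BM effect too, since the model has no term for them. For the AML-minus-normal effect 0 miRNAs passed by edgeR, DESeq2 or limma, and 0 had an unadjusted p under 0.05.

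The balance of the arms does not depend on library scaling, since both arms are read in the same library. The 3p arm made up 31.6% of miR-142a reads in normal BM (95% Clopper-Pearson interval 22.6% to 41.8%, 98 counts). Its share was 49.6% [44.1% to 55.0%] of 343 counts in AML BM and 54.3% [49.6% to 58.9%] of 466 counts in AML spleen. In normal spleen it was 61.9% [60.1% to 63.8%] of 2751 counts. The 5p arm was thus the larger in normal BM and 3p the larger in normal spleen, while the intervals of the leukaemic libraries include equal shares. The 3p share followed the same order of libraries as the level of either arm, with overlapping intervals for AML BM and AML spleen.

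The odds of 3p over 5p were 3.52-fold higher in normal spleen than in normal BM, a log2 odds ratio of 1.81 with an exact conditional 95% interval of 1.17 to 2.49. They were 2.12-fold higher in AML BM than in normal BM, at 1.09 [0.37 to 1.82]. In AML spleen they were 1.37-fold lower than in normal spleen, at -0.45 [-0.75 to -0.16], which does not reach 2-fold. Between AML spleen and AML BM the value was 0.27, and its interval of -0.14 to 0.69 includes 0. Shifts of at least 2-fold, in either direction, were common among hairpins with both arms counted. The median log2 odds ratio without regard to sign was 1.07 between the normal tissues and 0.59 between AML BM and normal BM. It was 0.95 between AML and normal spleen and 0.74 between the AML tissues. At least 2-fold with an interval off 0 were 47.7% of 44 hairpins between the normal tissues and 30% of 40 between AML BM and normal BM. Between AML and normal spleen 46.2% of 39 reached this, and between the AML tissues 34.9% of 43. The log2 odds ratio of miR-142a ranked 7th from the highest both between the normal tissues and between AML BM and normal BM, and in AML against normal spleen it was the median of the 39.

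**Figure D4:**
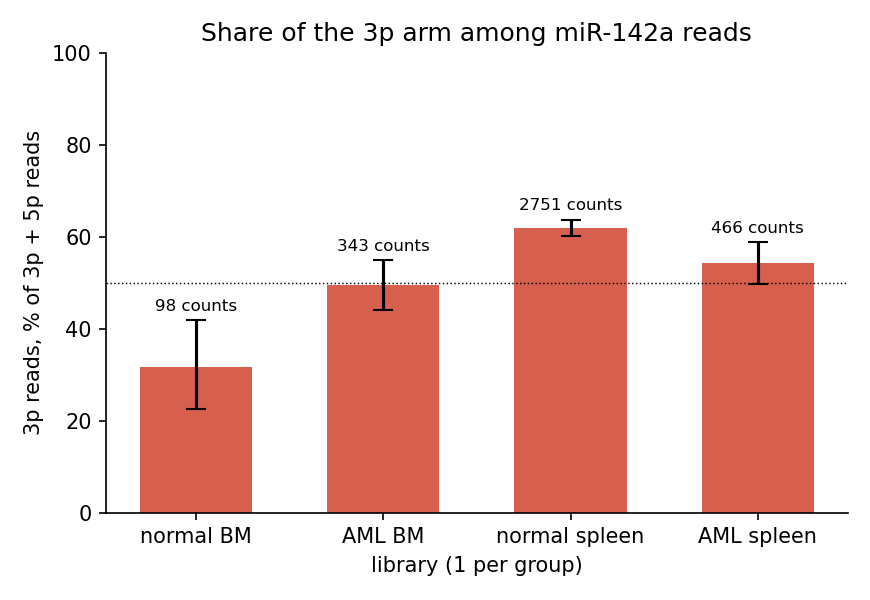
Share of 3p reads among all miR-142a reads in percent (y, from 0) in each library (x), with bars of the 95% Clopper-Pearson interval and the number of reads above. The share is 31.6% in normal BM and 61.9% in normal spleen, with the leukaemic libraries between them, and the dotted line marks equal arms.

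Other miRNAs of leukocytes were set beside miR-142, from a list of 12 arms of which 11 were in the table. The list was chosen with earlier results of these data known. The list holds both arms of miR-223, of miR-155 (induced by inflammatory signals), of miR-150 and miR-342 (enriched in lymphocytes) and of miR-146a (a brake on NF-kB signalling), with miR-181a-5p and miR-181b-5p (active in lymphocyte development). In AML BM against normal BM 4 of 9 members compared were called higher and 0 lower (13.4% and 12% of all miRNAs), with a median log2 ratio of 0.86 against 0.00 for all 216 miRNAs. In AML spleen against normal spleen 6 of 9 were lower and 0 higher (21.3% and 25% of all), with a median of -1.40 against -0.25. Between normal spleen and normal BM 7 of 9 were higher and 1 lower (30.8% and 35.5%), with medians of 2.47 and 0.19. Between AML spleen and AML BM 3 were higher and 2 lower (13.7% and 21.3%), with medians of 0.86 and -0.12.

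The list took 2.07% of the reads of normal BM, 4.86% of AML BM, 5.87% of AML spleen and 11.5% of normal spleen, the order that miR-142 had. A single member, miR-181a-5p, gave between 57.0% and 77.7% of the counts of the list. Per 100 counts of the list, miR-142a-5p gave 1.56 [1.21 to 1.99] counts in normal BM, 1.31 [1.12 to 1.52] in AML BM, 2.01 [1.75 to 2.31] in AML spleen and 2.08 [1.96 to 2.21] in normal spleen. Set against these miRNAs its range was 1.59-fold, with the lowest value in AML BM. For miR-142a-3p the same ratio was 0.724 [0.491 to 1.03] in normal BM, 1.29 [1.10 to 1.50] in AML BM, 2.39 [2.10 to 2.71] in AML spleen and 3.39 [3.23 to 3.56] in normal spleen. Its range was 4.68-fold, and none of the 4 intervals overlapped.

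These ratios depended on miR-181a-5p. Without it in the list, a setting added after seeing the data, miR-142a-3p gave 5.78 [4.92 to 6.75] counts per 100 in AML BM and 6.03 [5.29 to 6.84] in AML spleen, which overlap. Normal BM remained the lowest, at 1.99 [1.35 to 2.84], and normal spleen the highest, at 7.88 [7.50 to 8.28]. For miR-142a-5p the values were then 4.31 [3.32 to 5.50] in normal BM, 4.84 [4.55 to 5.15] in normal spleen, 5.07 [4.40 to 5.82] in AML spleen and 5.88 [5.01 to 6.86] in AML BM. AML BM was thus the highest rather than the lowest for this arm, over a 1.37-fold range in which neighbouring intervals overlap.

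Likeness to miR-142a-3p was measured by the root mean square difference of log2 levels over the 4 libraries, each centred on its own mean. Only miRNAs with at least 30 counts in each library were eligible, which left out miR-155-5p with its 14 counts in normal BM. Among these 141 others the nearest were miR-150-5p (0.61), miR-15b-5p (0.67), miR-339-5p (0.69), miR-342-3p (0.84) and miR-151-3p (0.85). The other arm, miR-142a-5p, stood at 0.67, so that 2 of the 141 eligible miRNAs were nearer than it. The lymphocyte-enriched miR-150-5p had 743, 1352, 8687 and 25275 scaled CPM in normal BM, AML BM, AML spleen and normal spleen. It kept the order of miR-142a-3p with a wider gap between the AML tissues, at a log2 ratio of 2.68. For miR-15b-5p, made from an intron of Smc4 with miR-16, the levels were 154, 396, 482 and 1423 scaled CPM in the same order. Its log2 ratios were 1.36 in AML BM against normal BM and -1.56 in AML spleen against normal spleen.

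Other near miRNAs departed from miR-142a-3p in places. For miR-342-3p, from an intron of Evl, AML BM did not exceed normal BM, at 121 and 154 scaled CPM. For miR-151-3p, from an intron of Ptk2, AML spleen was level with normal spleen, at 21432 and 20536 scaled CPM. For miR-339-5p the AML BM ratio was 1.15 and the AML spleen ratio -0.55. The inflammation-induced miR-155-5p had 14 counts in normal BM and 824 in normal spleen, with 100 in AML BM and 95 in AML spleen. Its log2 ratios were 2.40 in the BM and -2.09 in the spleen, beside 2.02 and -1.73 for miR-142a-3p. Between the normal tissues it stood at 4.96 and between the AML tissues at 0.47, beside 4.86 and 1.11. With too few counts in normal BM, miR-155-5p was not ranked, so the 5 named are nearest only among the eligible miRNAs. These likenesses rest on 4 libraries that share their depth and scaling, and they are descriptions.

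**Figure D5:**
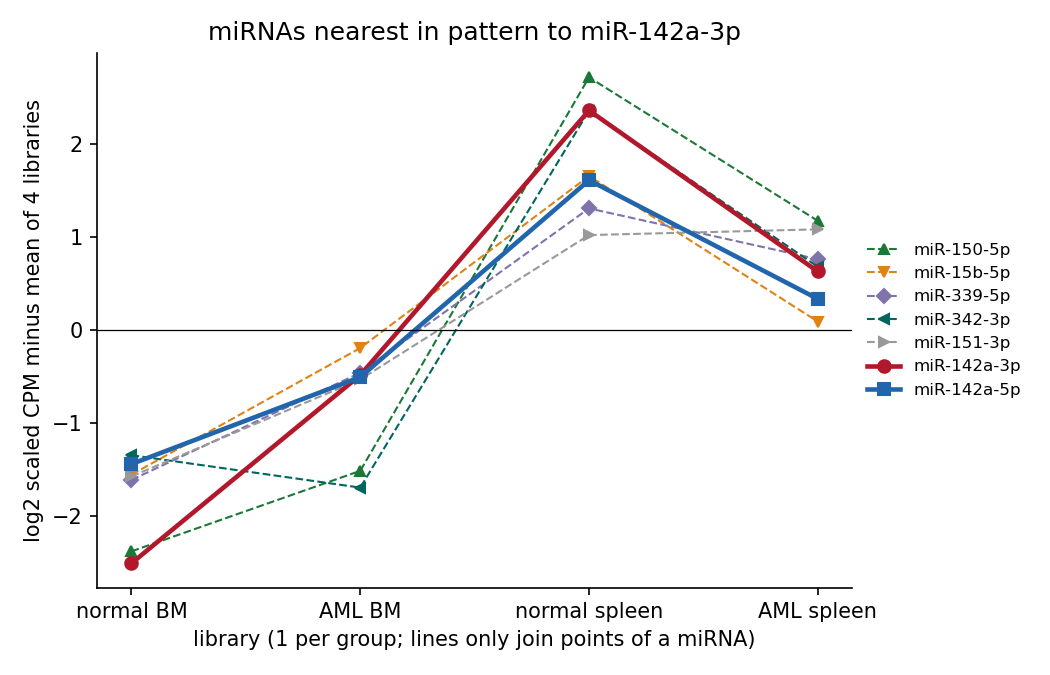
Log2 scaled CPM minus the mean of the 4 libraries (y) in each library (x) for the arms of miR-142a (solid lines) and the 5 miRNAs nearest to miR-142a-3p (dashed lines), where lines join the points of a miRNA. Only miRNAs with at least 30 counts in each library were eligible as nearest. The miRNAs shown are lowest in a BM library, and miR-342-3p has a lower level in AML BM than in normal BM.

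Markers of other cell types also differed between the libraries. Summed over each list, the non-blood ones were highest in normal BM and lowest in normal spleen, though single members did not all keep this order. The 9 stromal and endothelial miRNAs of the list fixed for this purpose, such as miR-143-3p and miR-126a-3p, held 3.23% of reads in normal BM, 2.30% in AML BM, 2.38% in AML spleen and 0.330% in normal spleen. The liver miRNA miR-122-5p together with miR-133a-3p, miR-206-3p and miR-1a-3p of muscle held 4.25%, 1.40%, 1.60% and 0.292% in the same order. The lymphocyte list of 5 summed to 1.69%, 4.44%, 4.90% and 9.45%, of which miR-181a-5p gave between 69.6% and 85.0% of the counts. Between AML spleen and AML BM, where miR-142a-3p stood at 1.11, its members were split, with 2 higher, 2 lower and a median of -0.14. Those higher were miR-150-5p (2.68) and miR-150-3p (2.82), and those lower were miR-181b-5p (-1.27) and miR-181d-5p (-3.14). The 4 erythroid miRNAs summed to between 0.792% and 0.982% in every library, but their members differed in opposite directions. The red cell miRNA miR-451a had log2 ratios of -3.43 between the normal tissues, -2.15 in AML BM against normal BM and 1.96 in AML spleen against normal spleen, each opposite in sign to miR-142. In AML spleen against AML BM it stood at 0.68 [0.45 to 0.90], the same sign as miR-142. For miR-486a-5p, the most abundant of the 4 in 3 of the libraries, the ratios were 1.01, 0.53, -0.35 and 0.13 in the same order. All members of these lists had at least 1 count in every library, and their part in the miR-142 differences was not tested. In bulk RNA of sorted cells, fewer cells that hold a miRNA and less of it per cell cannot be told apart.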

How the data were processed

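The counts of reads are as deposited, for 847 miRNA rows and 4 libraries, and the authors' TPM values, so named per the file headers, equalled each count over its library total times 1000000. All analysis started from the counts. The aligner, build, strand setting and miRNA annotation were not given in the sources used here, and 1 library per group leaves the spread between mice unmeasured.

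Libraries were scaled with TMM factors (edgeR 4.0.16, R 4.3.3). Ratios carry 95% exact conditional (Clopper-Pearson) intervals, and calls needed a ratio of at least 2 or at most 0.5, an interval excluding 1 and at least 30 counts in the larger library. A count of 0 entered as 3. The additive model used edgeR's quasi-likelihood test with Benjamini-Hochberg adjustment over 246 miRNAs that reached 30 counts in any library, with DESeq2 1.42.0 and limma 3.58.1 (prior count 2) as alternatives. Arm odds ratios used hairpins with at least 30 counts for each arm over the 2 libraries and for each library over both arms. A single arm in a single library could thus have fewer. Scripts were tested on simulated data. Sequences are from RefSeq (GRCm38.p6), with 673 rows matched by name. The named miRNAs are the members, the 5 nearest in pattern to miR-142a-3p among those with at least 30 counts in each library, and the leukocyte list. Members and lists were chosen with earlier results of these data known.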

Additional observations from a re-analysis of the deposited data

Results flagged for a closer look

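The AML-to-normal difference of miR-142 ran in opposite directions in the tissues, higher in the BM library and lower in the spleen library. The spleen log2 ratio minus the BM log2 ratio was -3.75 for miR-142a-3p and -2.21 for miR-142a-5p. With 1 library per tissue and state, this difference was not tested across replicates, and its intervals cover counting error only.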

How the results depend on the processing

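Of 105 values recomputed under the alternatives, 86 kept their direction and call or stayed within 1.5 times of the original count. A further 3 gained a call, 16 moved beyond that range and 0 reversed. The 105 include values of miR-142b, which repeat those of miR-142a-3p and are not separate checks. The 4 arm shares recomputed with the counts of miR-142b had to stay the same. On totals without the 10 most abundant miRNAs, miR-142a-5p in AML BM against normal BM passed 2-fold at 1.13. With DESeq2 the tissue effect of miR-142a-3p, and of miR-142b with the same reads, was 3.07 and passed the threshold; the cause was not tested. Over the scalings the log2 ratios of miR-142a-3p ranged from 2.02 to 2.22 (AML BM against normal BM), -1.97 to -1.48 (AML spleen against normal spleen), 4.71 to 5.10 (normal spleen against normal BM) and 1.08 to 1.18 (AML spleen against AML BM). Those of miR-142a-5p ranged from 0.93 to 1.13, -1.51 to -1.02, 2.89 to 3.28 and 0.81 to 0.91. The scalings moved all ratios of AML spleen against normal spleen by -0.24 to 0.25. With minimums of 100 and 1 counts the miRNAs called in either direction numbered 24 and 119 in AML BM against normal BM (55 at 30 counts). They numbered 64 and 179 in AML spleen against normal spleen (100 at 30), 96 and 259 in normal spleen against normal BM (155 at 30), and 37 and 141 in AML spleen against AML BM (74 at 30). Counts per 100 of the leukocyte list all moved when miR-181a-5p left it, as fewer counts remain below the line, and the order of the libraries changed for miR-142a-5p. No paired analysis was possible because the labels give no replicate numbers that link libraries. The additive model compares libraries within a tissue or a state, without such a link. The 31 counts of miR-142a-3p in normal BM limit the precision of every ratio against that library.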
